A study of Mus musculus with 12 samples.

Results

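Chemokines are small secreted proteins that direct leukocytes, and their receptors are G protein-coupled. The genes described here are those of the deposited table whose symbols name a chemokine ligand or receptor of the CC, CXC, CX3C or XC family, without Ccl17, Ccl22, Ccl24, Ccr2, Ccr7, Cxcr4 and Cxcr5. This rule uses names only and gave 43 of 1448 genes, 31 ligands and 12 receptors. Their transcripts were measured in total RNA from peritoneal macrophages of mice, phagocytes of the abdominal cavity. The measurement used a NanoString nCounter assay, in which barcoded probes are counted without amplification. The 12 samples form 4 groups of 3. Samples are called mice below, but the labels do not state that each came from a separate animal, and p-values measure only the spread between these samples, which may be technical. Aged mice were 20 to 22 months old and young mice 3 to 4 months old, and each age class has 3 untreated samples and 3 from mice that received PF-044 by oral gavage at 2.5 mg/kg per day for 6 weeks. PF-044 is an antagonist of EP2, a prostaglandin E2 receptor that raises cyclic AMP. The strain and sex of the mice, and any gavage of untreated mice, were not given in the sources used here.

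Ligands differ in the cells they call. CCL2 and CCL7 attract monocytes, CCL3, CCL4 and CCL5 attract monocytes and lymphocytes, CXCL1 and CXCL2 attract neutrophils, CXCL9, CXCL10 and CXCL11 attract activated T cells, and CXCL13 attracts B cells. Peritoneal macrophages are known as a source of neutrophil and monocyte chemokines during inflammation and of CXCL13, which is needed for the homing of B cells to the body cavities. Receptors report which leukocytes are present as well as how macrophages are equipped, since many are carried by lymphocytes.

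Values are normalized log2 levels with a floor of 20 linear units, 4.32 on the log2 scale. The samples were uneven at low levels. Aged untreated replicate 2 held 741 genes at the floor, and its lowest value above the floor was 6.25, so a gene below 6.25 cannot be told from absence there. Aged untreated replicate 1 held 333 genes at the floor and replicate 3 held 527, with lowest values of 4.52 and 4.72. The other 9 samples held 404 to 467, with lowest values of 4.32 to 4.35. Replicate 1 of the aged untreated mice also had 63 genes above the floor that were at the floor in every other sample, against 0 to 3 such genes in each other sample. The macrophage transcripts Csf1r (8.05 to 9.62) and Adgre1 (9.82 to 11.11) were above the floor in every sample, while Gata6, a transcription factor of resident peritoneal macrophages, was at the floor in aged untreated replicate 2 and between 6.09 and 7.65 in the others. All 7 macrophage markers in the table fell with age in untreated mice, and their summed linear level was 10669 to 11517 in young untreated, 8043 to 9042 in young PF-044, 4735 to 5423 in aged untreated and 7086 to 7879 in aged PF-044 mice. The 3 B cell markers in the table all rose with age, with sums of 8838 to 9896, 9699 to 12542, 42608 to 48222 and 23032 to 26470 in the same order. Of 9 mast cell and basophil markers in the table, 7 fell with age in untreated mice and 2 did not pass. Their sums were 10724 to 12114, 11896 to 14887, 5720 to 6397 and 6441 to 9260 in that order of groups. The part of mast cells in the chemokine levels was not tested. In such bulk samples, fewer cells of a type and less RNA per cell cannot be told apart.

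Of the 43 chemokine and receptor genes, 11 were above the floor in all 12 samples. They were the CC ligands Ccl2, Ccl3, Ccl5, Ccl6, Ccl7 and Ccl9, the CXC ligands Cxcl1, Cxcl2 and Cxcl13, and the receptors Ccr1 and Cxcr6. Another 11 were at the floor in all samples, namely Ccl1, Ccl11, Ccl12, Ccl25, Ccl26, Ccl28, Cxcl3, Cxcl5, Cx3cl1, Ccr8 and Xcr1. A further 8 were above the floor only in aged untreated replicate 1. These were Ccl8 (5.54), Cxcl10 (5.44), Cxcr1 (5.44), Ccl19 (5.20), Ccr4 (5.03), Cxcl9 (4.62), Ccl27a (4.59) and Cxcl11 (4.52). All 3 interferon-inducible ligands of CXCR3 are among these 8. The remaining 13 were above the floor in some samples, Ccl20 and Cxcr2 in 2 of them each. Thus 32 members were tested, and a member that passed this filter in 1 mouse alone carries little information.

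**Figure D1:**
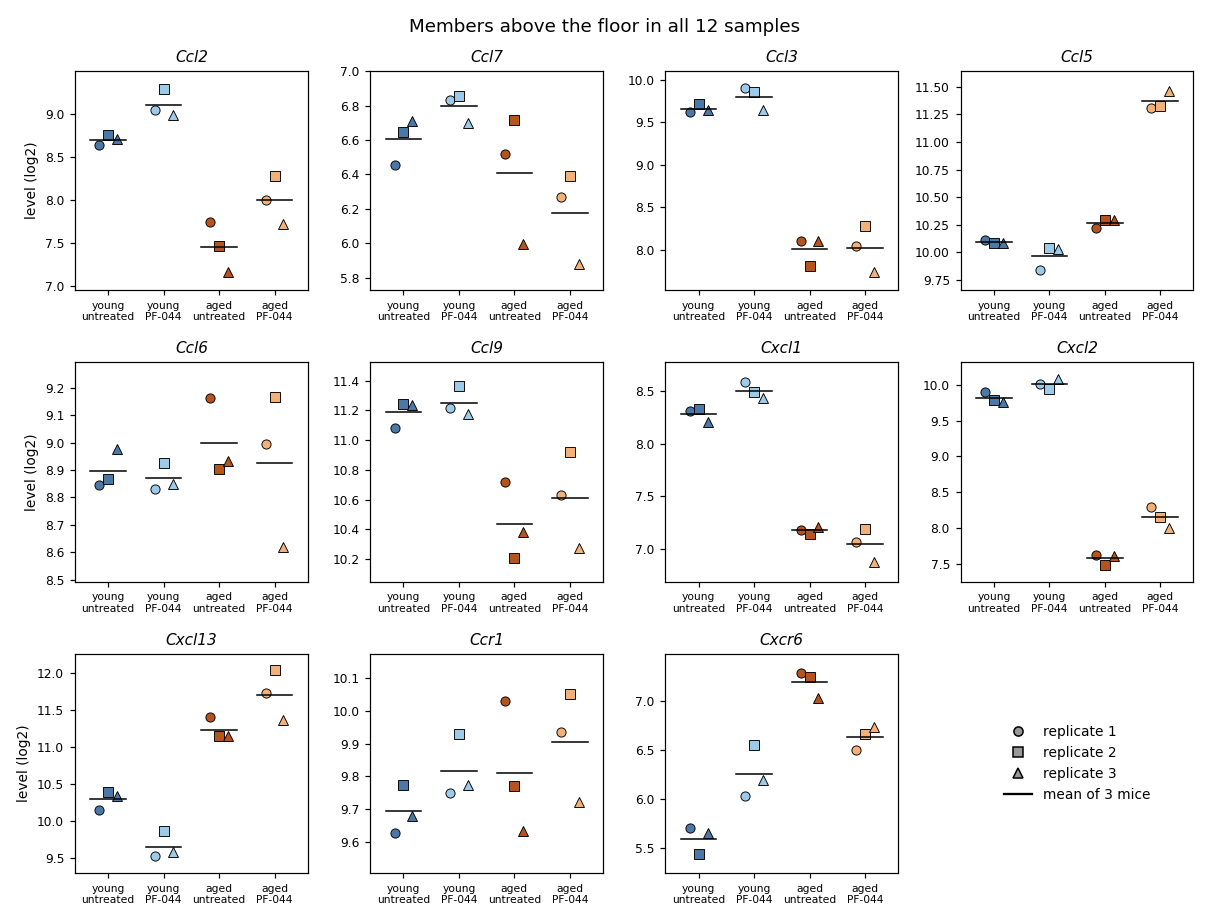
Log2 level (y axis) of the 11 members above the floor in all 12 samples, in 4 groups of 3 mice (symbols: replicates; bars: group means). Ccl2, Ccl3, Ccl9, Cxcl1 and Cxcl2 are lower in all 6 aged than in all 6 young mice, Cxcl13 is higher in all 6 aged mice, and Ccl5 is highest in the 3 aged PF-044 mice.

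The first comparison asks how aged and young untreated mice differ. The neutrophil attractants Cxcl2 and Cxcl1 fell 4.74-fold and 2.15-fold, and among 8 CC ligands of inflammatory receptors that were tested 3 fell (Ccl3 3.15-fold, Ccl2 2.37-fold and Ccl9 1.68-fold), 1 rose (Ccl5, 1.13-fold) and 4 did not pass. The B cell attractant Cxcl13 rose 1.92-fold and the receptor gene Cxcr6 3.02-fold. Ccl6, Ccl7 and Ccr1 did not pass. Of the 32 members tested 3 rose, 7 fell and 22 did not pass, so 31.2% were called. Over all 1190 genes tested 54% were called, 21.2% higher and 32.9% lower. The 32 include the 8 members seen only in aged untreated replicate 1, whose change with age could only be positive. Of the 11 members above the floor in all samples 3 rose and 5 fell, or 72.7%, beside 71.8% of all 706 such genes, with a median change of -0.19 against -0.04. Over the 32 members, 15 were called higher and 7 lower with each sample centred on its median. On the reference genes 15 and 5 were called, and with quantile normalization 6 and 8. Both centrings also shift values at the floor, which then differ between samples. Added calls of members with floor values can therefore come from the shift alone. Of the members not called before, only Ccl6, Ccl7 and Ccr1 were above the floor in all samples.

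Cxcl2 encodes MIP-2, a ligand of the neutrophil receptor CXCR2. Its log2 level was 9.90, 9.79 and 9.76 in young untreated mice, 10.01, 9.94 and 10.09 in young PF-044 mice, 7.63, 7.48 and 7.61 in aged untreated mice and 8.29, 8.15 and 8.0 in aged PF-044 mice. No aged value reached a young one, and the aged untreated group lay below the aged PF-044 group. The change with age in untreated mice was -2.24 (SE 0.08, limma adjusted p 1.2e-09).

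Cxcl1, which encodes the neutrophil attractant KC, lies next to Cxcl2 on chromosome 5. Its levels were 8.31, 8.33 and 8.21 in young untreated, 8.59, 8.49 and 8.43 in young PF-044, 7.18, 7.15 and 7.21 in aged untreated and 7.07, 7.19 and 6.88 in aged PF-044 mice. Again the 6 aged mice lay below the 6 young ones, while the aged groups overlapped. The change with age was -1.10 (SE 0.09, limma adjusted p 1.0e-06). Scaled to the reference genes Gapdh, Gusb, Hprt and Pgk1, which shifts every gene by 0.41 log2 units, the change of Cxcl1 was -0.70.

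The promoter windows of Cxcl1 and Cxcl2 are shown because these neighbours fell together, that of Cxcl3 because this further gene of the same class showed the floor in all 12 samples, and that of Cxcl13 because its gene moved the other way. They span each annotated start, on the plus strand of chromosome 5 in GRCm38.p6 (RefSeq). Capitals mark matches on either strand to GGGA followed by any 2 bases and TTCC, a motif chosen after the sequences were seen, the core of sites for the inflammatory transcription factor NF-kappaB.
Cxcl1, chr5:90890995-90891294: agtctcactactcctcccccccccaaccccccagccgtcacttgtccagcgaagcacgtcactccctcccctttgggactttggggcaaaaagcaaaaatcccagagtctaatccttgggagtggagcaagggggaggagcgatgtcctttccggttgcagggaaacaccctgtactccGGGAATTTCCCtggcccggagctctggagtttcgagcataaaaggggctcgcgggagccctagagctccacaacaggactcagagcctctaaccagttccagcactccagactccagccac
Cxcl2, chr5:90903649-90903948: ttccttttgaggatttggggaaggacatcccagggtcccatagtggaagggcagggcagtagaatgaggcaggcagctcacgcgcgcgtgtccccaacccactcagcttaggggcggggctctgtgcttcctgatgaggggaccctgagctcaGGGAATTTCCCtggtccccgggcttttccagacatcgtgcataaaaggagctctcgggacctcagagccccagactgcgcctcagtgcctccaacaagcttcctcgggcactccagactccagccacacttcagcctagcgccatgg
Cxcl3, chr5:90785851-90786150: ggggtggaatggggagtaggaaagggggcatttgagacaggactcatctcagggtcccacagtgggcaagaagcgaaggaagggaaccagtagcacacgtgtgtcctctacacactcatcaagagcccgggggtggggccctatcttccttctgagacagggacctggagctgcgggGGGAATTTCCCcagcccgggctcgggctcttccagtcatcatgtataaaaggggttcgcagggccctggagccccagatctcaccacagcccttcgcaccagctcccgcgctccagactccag
Cxcl13, chr5:95956689-95956988: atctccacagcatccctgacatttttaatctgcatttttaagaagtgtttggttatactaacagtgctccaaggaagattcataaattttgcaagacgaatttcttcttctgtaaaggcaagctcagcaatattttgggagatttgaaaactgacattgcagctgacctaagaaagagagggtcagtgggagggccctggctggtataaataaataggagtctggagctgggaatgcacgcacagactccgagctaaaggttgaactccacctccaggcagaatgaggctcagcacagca

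Cxcl1, Cxcl2 and Cxcl3 each hold the same 11 bases, GGGAATTTCCC, in which that motif matches on both strands with an overlap of 9 bases. Of all 32851 promoter windows in the table, 14 (0.0426%) hold these 11 bases and 1.47% hold the motif. A promoter window was found for 33 of the 43 members. A member with several windows, such as Ccl27a, was counted if any of them held a match. The shares of all windows count each window by itself. Ccl2, Ccl5 and Ccl7 were among those without a window and were not searched. Of the 33 genes 6 hold the motif, namely Cxcl1, Cxcl2, Cxcl3, Cxcl10, Ccr3 and Ccl1. Of these 6 only Cxcl1 and Cxcl2 were above the floor in all samples. The Cxcl13 window and that of Ccl3 hold no match. A looser form, GGG followed by any 5 bases and CC, overlaps the narrower motif and was found in 21 of the 33 and in 50.8% of all windows. The AP-1 motif TGACTCA was found in 6 of the 33 and in 5.20% of all windows, and the interferon response motif, GAAA, any 2 bases and GAAA, in 3, those of Ccl19, Cxcl10 and Cxcl14, and in 3.44% of all. The cyclic AMP response motif TGACGTCA was in 0 of the 33 and in 1.79% of all. These are matches of letters and not measured binding sites.

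Among the CC ligands, Ccl3, which encodes MIP-1 alpha, a ligand of CCR1, had levels of 9.62, 9.71 and 9.64 in young untreated, 9.90, 9.86 and 9.64 in young PF-044, 8.10, 7.81 and 8.11 in aged untreated and 8.05, 8.28 and 7.73 in aged PF-044 mice. The young mice lay well above both aged groups, which overlapped each other. The change with age was -1.66 (SE 0.13, limma adjusted p 4.9e-07). Its neighbour on chromosome 11, Ccl4, encoding MIP-1 beta, was near the floor in all groups (4.46, 5.16 and 4.94 in young untreated and 5.39, 4.32 and 5.0 in aged untreated mice) and gave 0.05 (SE 0.29), which did not pass.

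Ccl2 encodes MCP-1, the main ligand of the monocyte receptor CCR2. It stood at 8.64, 8.75 and 8.71 in young untreated, 9.04, 9.29 and 8.99 in young PF-044, 7.74, 7.47 and 7.16 in aged untreated and 8.0, 8.28 and 7.72 in aged PF-044 mice. All aged values lay below all young ones, and 1 aged PF-044 mouse overlapped the aged untreated group. The change with age was -1.24 (SE 0.16, limma adjusted p 3.2e-05). Ccl7, which encodes another CCR2 ligand and lies next to Ccl2, did not follow it. Its levels were 6.46, 6.65 and 6.71 in young untreated and 6.52, 6.72 and 6.00 in aged untreated mice, a change of -0.19 (SE 0.20, limma adjusted p 0.45). With PF-044 it was at 6.83, 6.85 and 6.70 in young and at 6.27, 6.39 and 5.88 in aged mice.

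Ccl9 and Ccl6 are neighbouring mouse genes of a CC subgroup whose products bind CCR1. Ccl9 was at 11.08, 11.24 and 11.24 in young untreated, 11.22, 11.36 and 11.17 in young PF-044, 10.72, 10.21 and 10.38 in aged untreated and 10.63, 10.92 and 10.27 in aged PF-044 mice. It fell by 0.75 with age (SE 0.15, limma adjusted p 0.0013), and the untreated groups did not overlap. On the reference genes that change was -0.34 with a limma adjusted p of 0.059. Ccl6 was at 8.84, 8.87 and 8.98 in young untreated, 8.83, 8.93 and 8.85 in young PF-044, 9.16, 8.90 and 8.93 in aged untreated and 8.99, 9.16 and 8.62 in aged PF-044 mice. These ranges overlapped, and Ccl6 passed in no comparison. Ccl9, Ccl6 and Ccl3 are consecutive protein-coding genes in RefSeq, so the member that did not pass lies between a pair that fell.

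Ccl5 encodes RANTES, a ligand of CCR1 and CCR3 made by T cells, NK cells and macrophages. Its levels were 10.11, 10.09 and 10.09 in young untreated, 9.84, 10.04 and 10.03 in young PF-044, 10.22, 10.30 and 10.29 in aged untreated and 11.31, 11.33 and 11.46 in aged PF-044 mice. The aged PF-044 mice stood above all others by about 1 log2 unit. The change with age in untreated mice was small, at 0.17 (SE 0.06, limma adjusted p 0.031), and it no longer passed once any 1 of 5 samples was dropped, whether aged untreated replicate 2 or 3 or a young untreated mouse (0.16 to 0.18, limma adjusted p 0.058 to 0.083). It also ended without the trend in eBayes (limma adjusted p 0.070) and with quantile normalization (0.11, limma adjusted p 0.26), and centring each sample on its median or on the reference genes enlarged it to 0.38 or 0.58.

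Cxcl13 was the CXC ligand that rose. Its levels were 10.15, 10.38 and 10.34 in young untreated, 9.52, 9.86 and 9.57 in young PF-044, 11.40, 11.14 and 11.14 in aged untreated and 11.72, 12.03 and 11.36 in aged PF-044 mice. The young PF-044 mice were lowest, the young untreated ones next, and all 6 aged mice were above both. The change with age was 0.94 (SE 0.15, limma adjusted p 2.3e-04). The B cell marker sums above moved with it across age in untreated mice. In aged mice the sums were lower with PF-044, while the mean of Cxcl13 was higher. In young mice the sums of both groups overlapped, while Cxcl13 was lower with PF-044. The part of B cells in this result was not tested.

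Low CXC and XC ligands gave no call. Cxcl16, which encodes a membrane-bound ligand of CXCR6, was at 5.63, 5.31 and 5.73 in young untreated, 5.23, 5.18 and 5.50 in young PF-044, 5.87, 4.32 and 5.82 in aged untreated and 5.70, 5.95 and 5.62 in aged PF-044 mice. Its change with age was -0.22 (SE 0.35), or 0.29 without aged untreated replicate 2, where it is at the floor. Cxcl12, the ligand of CXCR4, was at 4.89, 4.83 and 4.71 in young untreated, 4.75, 5.15 and 4.77 in young PF-044, 4.32, 4.32 and 4.72 in aged untreated and 5.08, 4.68 and 4.39 in aged PF-044 mice, with a change of -0.36 (SE 0.19, limma adjusted p 0.13). Cxcl14 lay between 4.32 and 5.20, and Xcl1, a lymphocyte product that attracts cross-presenting dendritic cells, between 4.32 and 6.45. Ccl21a, a ligand of CCR7 with near-identical gene copies in the mouse that the probe may not separate, was at 7.65 in aged untreated replicate 1, at the floor in the other two aged untreated mice and between 4.85 and 5.71 in the 9 other samples.

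**Figure D2:**
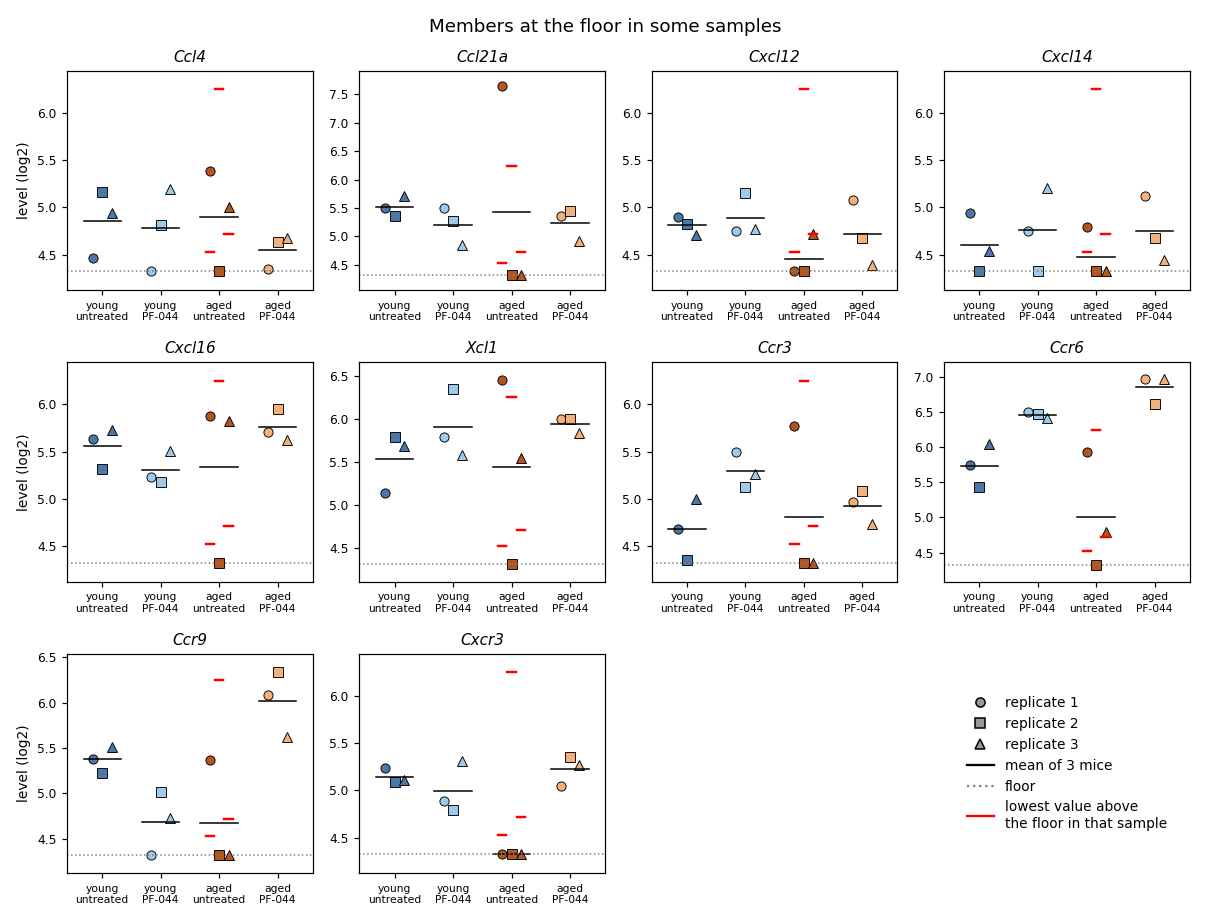
Log2 level (y axis) of 10 members that were at the floor (dotted line, 4.32) in at least 1 sample, in 4 groups of 3 mice. Red ticks give the lowest value above the floor in each aged untreated mouse (4.52, 6.25 and 4.72), below which that sample shows the floor. In all 3 aged PF-044 mice Ccr6, Ccr9, Cxcr3, Cxcl16 and Xcl1 lie above the aged untreated mean, which includes floor values. Cxcl16 and Xcl1 did not pass for PF-044 in aged mice and changed by -0.09 and -0.05 without aged untreated replicate 2.

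Receptors moved both ways with age. Cxcr6, the receptor of CXCL16 on T cells and innate lymphocytes, was at 5.70, 5.43 and 5.64 in young untreated, 6.03, 6.54 and 6.19 in young PF-044, 7.29, 7.25 and 7.03 in aged untreated and 6.50, 6.66 and 6.73 in aged PF-044 mice. The untreated groups were farthest apart, with both PF-044 groups between them. It rose by 1.6 with age (SE 0.17, limma adjusted p 8.2e-06). The change was 0.54 with a common floor of 100 linear units, which lies above its young values.

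Cxcr3, the receptor of CXCL9, CXCL10 and CXCL11 on activated T cells and NK cells, was at 5.23, 5.09 and 5.11 in young untreated, 4.89, 4.79 and 5.31 in young PF-044 and 5.05, 5.35 and 5.26 in aged PF-044 mice, while the 3 aged untreated mice all showed the floor. Every young value exceeded the lowest values that aged untreated replicates 1 and 3 show (4.52 and 4.72), while replicate 2 could not show a value at this level. The limma adjusted p with age was 5.2e-04, and it was 0.0010 without replicate 2, but the fitted change depends on the floor, so no fold is given. Scaled to the reference genes it did not pass (limma adjusted p 0.073).

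Ccr6, the receptor of CCL20 on B cells and T cell subsets, was at 5.74, 5.43 and 6.04 in young untreated, 6.49, 6.47 and 6.41 in young PF-044, 5.93, 4.32 and 4.79 in aged untreated and 6.97, 6.61 and 6.96 in aged PF-044 mice. Ccr9, the receptor of the gut chemokine CCL25, was at 5.38, 5.23 and 5.51, at 4.32, 5.02 and 4.72, at 5.37, 4.32 and 4.32 and at 6.08, 6.34 and 5.62 in the same order of groups. The aged PF-044 mice were highest for both genes. With age in untreated mice Ccr6 gave -0.72 (SE 0.34, limma adjusted p 0.093) and Ccr9 -0.70 (SE 0.30, limma adjusted p 0.066). Neither passed with all samples. Without aged untreated replicate 1, the 1 mouse of its group with values near the young ones, Ccr6 gave -1.18 and Ccr9 -1.05 (limma adjusted p 9.0e-04 and 0.0029). Both of these sizes depend on the floor. Leaving out replicate 2 instead gave -0.38 and -0.53 (limma adjusted p 0.27 and 0.16).

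Ccr1, the receptor of CCL3, CCL5, CCL6 and CCL9 on myeloid cells, was at 9.63, 9.78 and 9.68 in young untreated, 9.75, 9.93 and 9.77 in young PF-044, 10.03, 9.77 and 9.63 in aged untreated and 9.94, 10.05 and 9.72 in aged PF-044 mice. The groups overlapped, and it passed in no comparison, with a change with age of 0.12 (SE 0.10). Ccr3, the eosinophil receptor, was at 4.68, 4.35 and 5.0 in young untreated, 5.49, 5.12 and 5.27 in young PF-044, 5.77, 4.32 and 4.32 in aged untreated and 4.97, 5.08 and 4.74 in aged PF-044 mice, and did not pass either. Cxcr2, the receptor of CXCL1 and CXCL2 on neutrophils, was above the floor in aged untreated replicate 1 (5.10) and young untreated replicate 2 (4.52) alone. Of 7 neutrophil markers in the table Camp, Elane and Ly6g were at the floor in all samples, and the summed level of the list was 276 to 301 in young untreated, 287 to 297 in young PF-044, 140 to 328 in aged untreated and 225 to 248 in aged PF-044 mice.

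T cell markers fell with age in 10 of 10 genes, and their sum was 2407 to 2656 in young untreated, 2157 to 2374 in young PF-044, 1177 to 1238 in aged untreated and 2119 to 2251 in aged PF-044 mice. NK cell markers fell in 4 of 7, with sums of 737 to 840, 646 to 825, 381 to 564 and 950 to 1011, and the NK receptor gene Ncr1 was at the floor in all 6 aged mice. Ccr6, Ccr9 and Cxcr3 were low in the same group as these sums. Ccr9 was about as low in young PF-044 mice, with a mean of 4.69 beside 4.67 in aged untreated mice. Cxcr6, also a receptor of T cells, and the B cell sums were highest in the aged untreated group. The part of lymphocytes in the levels of these receptors was not tested.

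**Figure D3:**
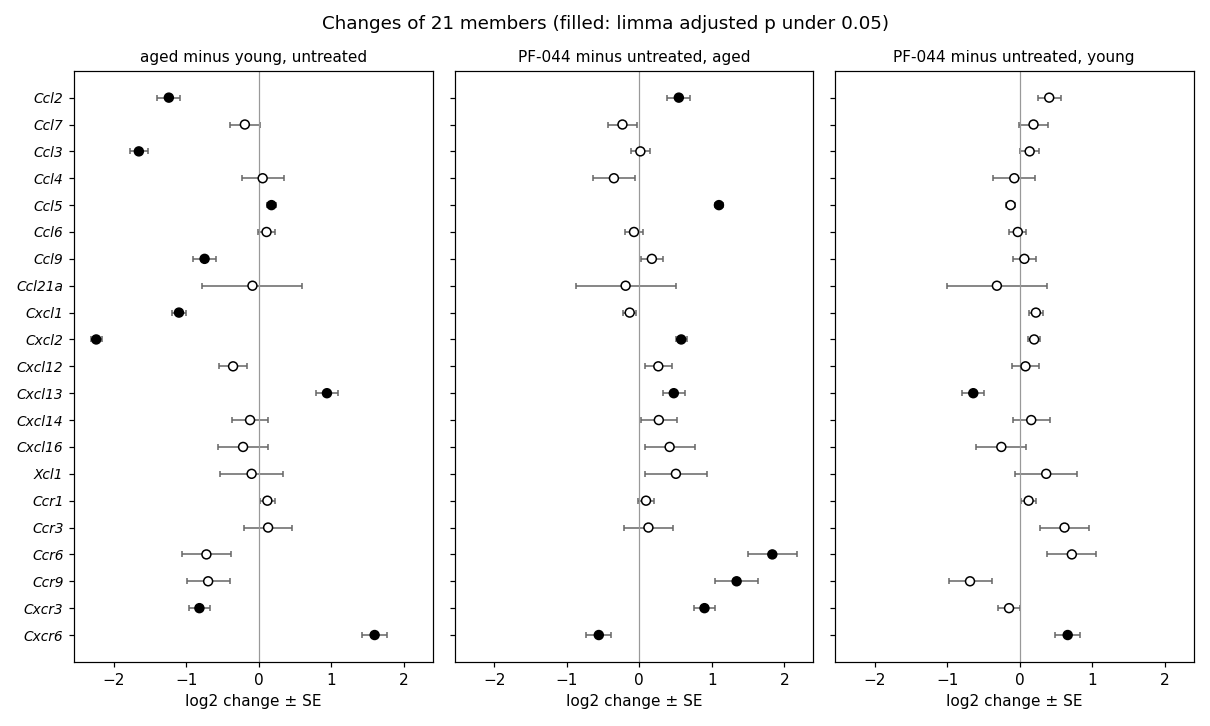
Log2 change ± SE (x axes) of 21 members (y axis) for age in untreated mice, PF-044 in aged mice and PF-044 in young mice. Filled points passed at a limma adjusted p of 0.05, and Ccl3 (-1.66) and Cxcl1 (-1.10) are filled for age while their PF-044 changes in aged mice are 0.01 and -0.13.

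The next question was what differed between aged mice with and without PF-044. Ccl5 rose 2.14-fold, the receptor genes Ccr6 and Ccr9 rose by a fitted 1.83 and 1.34 log2 units, sizes that depend on the floor, and Cxcl2 and Ccl2 rose 1.49-fold and 1.46-fold. Cxcr6 was the member that fell, by 0.56 log2 units. Ccl3 and Cxcl1, which were low in aged mice, gave 0.01 and -0.13 and did not pass. Of the 32 members 8 rose, 1 fell and 23 did not pass, so 28.1% were called. Over all genes tested 40.9% were called, 25.7% higher and 15.2% lower. Of the 11 members above the floor in all samples 45.5% were called, beside 56.2% of such genes, with a median change of 0.09 against 0.003. Quantile normalization gave 8 higher and 4 lower of the 32, and the reference genes 6 and 2. This comparison shares the 3 aged untreated mice with the first one, so a value in them enters both with opposite sign.

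Ccl5 gave the smallest limma adjusted p among the members, 2.7e-07, for a rise of 1.10 (SE 0.06) from 10.27 ± 0.05 (SD, n = 3) to 11.37 ± 0.08. T cell markers rose in 10 of 10 genes, NK cell markers in 2 of 7 and macrophage markers in 6 of 7, and their part in this rise was not tested. The T cell sums of aged PF-044 mice lay below those of young untreated mice, in which Ccl5 was 10.10 ± 0.01, and the NK cell sums lay above. The NK cell markers were split between these 2 groups. Klrk1 (0.52) and Klrd1 (0.53) were higher in aged PF-044 mice, Gzma (-1.77) and Ncr1 (-0.82) were lower, and 3 did not pass. Of the 10 T cell markers 4 were lower and 6 did not pass. Lower were Cd4 (-1.43), Cd28 (-0.69), Zap70 (-0.69) and Cd247 (-0.49), while Cd8a (0.37) and Cd8b1 (0.15) were among the 6. Among ligands, Cxcl2 rose by 0.58 (SE 0.08, limma adjusted p 1.2e-04). On the reference genes it gave 0.35. Ccl2 rose by 0.54 (SE 0.16, limma adjusted p 0.016). The Ccl2 call ended when aged PF-044 replicate 2 was left out (0.41, limma adjusted p 0.065), without aged untreated replicate 3 (0.40, 0.061), on the reference genes (0.31, 0.085) and in a fit of both aged groups alone (0.54, 0.12).

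Cxcl13 rose by 0.48 (SE 0.15, limma adjusted p 0.026). It no longer passed once any 1 of 4 samples was dropped, namely aged PF-044 replicates 1 and 2 and aged untreated replicates 2 and 3 (0.31 to 0.47, limma adjusted p 0.064 to 0.10), and under 4 other settings (0.24 to 0.48, limma adjusted p up to 0.16). Cxcr6 went from 7.19 ± 0.14 to 6.63 ± 0.12 (change -0.56, SE 0.17, limma adjusted p 0.021), and this call ended when aged PF-044 replicate 1 or 2 was left out (-0.49 and -0.57, limma adjusted p 0.084 and 0.051).

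With aged untreated replicate 2 at the floor for Ccr6 and replicates 2 and 3 for Ccr9, the fitted sizes depend on the floor. Ccr6 rose by 1.83 (SE 0.34, limma adjusted p 0.0011) and Ccr9 by 1.34 (SE 0.30, 0.0034). Leaving out aged untreated replicate 2 gave 1.49 and 1.17 (limma adjusted p 0.0015 and 0.0098), and leaving out replicate 1 gave 2.29 and 1.69. In aged PF-044 mice both genes were above the floor in every mouse. Cxcr3, which showed the floor in each aged untreated mouse, passed as well (limma adjusted p 5.0e-04), again with no fold. With a common floor of 100 linear units Ccr6 gave 0.21, since that floor lies above most of its values.

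The third comparison concerns PF-044 in young mice. Cxcl13 fell 1.56-fold and Cxcr6 rose 1.58-fold, each opposite in sign to its change in aged mice, and the other 30 members tested did not pass. Thus 1 rose and 1 fell, 6.25% of the 32, beside 14.1% of all genes tested (8.4% higher and 5.71% lower). Of the 11 members above the floor in all samples 18.2% were called, beside 21.7% of such genes. Quantile normalization gave 0 higher and 2 lower of the 32, and both centrings 0 and 1. Cxcl13 went from 10.29 ± 0.13 (SD, n = 3) to 9.65 ± 0.18 (change -0.64, SE 0.15, limma adjusted p 0.016) and Cxcr6 from 5.59 ± 0.14 to 6.25 ± 0.26 (0.66, SE 0.17, limma adjusted p 0.024), with no overlap of the groups in either gene. Both calls were close to the threshold. That of Cxcl13 ended without young PF-044 replicate 1 or 3 or young untreated replicate 2 or 3 (-0.62 to -0.58, limma adjusted p 0.057 to 0.067), and that of Cxcr6 without replicate 2 or 3 of either young group (0.52 to 0.69, limma adjusted p 0.054 to 0.093), under each of 3 other scalings (0.53 to 0.67, limma adjusted p 0.054 to 0.069) and with a common floor of 100 (0). Ccr6 gave 0.72 (limma adjusted p 0.21), Ccr3 0.62 (0.29), Ccl2 0.41 (0.12) and Ccr9 -0.69 (0.16), none of which passed.

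Whether PF-044 acted differently in aged and young mice was tested as a difference between its effects. It passed for Ccl5 (1.22, SE 0.09, limma adjusted p 3.5e-06), Ccr9 (2.03, SE 0.42, 0.0041), Cxcl13 (1.12, SE 0.22, 0.0027), Cxcr3 (limma adjusted p 0.0035) and Cxcl2 (0.38, SE 0.11, 0.025) in the direction of aged mice and for Cxcr6 in the opposite direction (-1.22, SE 0.24, 0.0032). These are 5 higher and 1 lower of 32, or 18.8%, beside 25.7% of all genes tested (15% higher and 10.8% lower). Quantile normalization gave 5 higher and 2 lower, and the reference genes 4 and 2. Of the 11 members above the floor in all samples 36.4% were called, beside 38.5% of such genes. Cxcl13 and Cxcr6 were called with opposite signs in the age classes. Ccl5, Cxcr3 and Cxcl2 were called in aged mice alone, at -0.13, -0.15 and 0.20 in young ones, and Ccr9 was at -0.69 there. The difference for Cxcl2 did not pass without aged PF-044 replicate 1, young PF-044 replicate 1 or 2 or young untreated replicate 1 (0.31 to 0.38, limma adjusted p 0.052 to 0.067), with quantile normalization (0.29, 0.064) or on the reference genes (0.14, 0.53), and that for Cxcr6 was -0.51 with a common floor of 100. For Ccr6 (1.12, SE 0.48, limma adjusted p 0.11) the difference did not pass with all samples. It was 1.57 (limma adjusted p 0.0031) without aged untreated replicate 1 and 0.77 (limma adjusted p 0.16) without replicate 2.

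**Figure D4:**
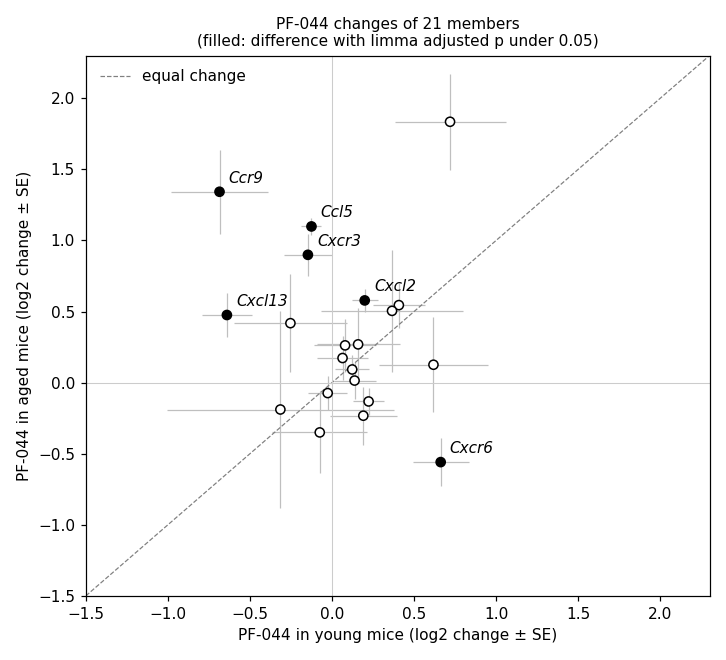
Log2 change with PF-044 in young (x axis) and aged mice (y axis) for 21 members, with SE bars; the dashed line marks equal change. Filled and named members passed for the difference: Ccl5, Ccr9, Cxcl13, Cxcr3 and Cxcl2 lie above the line, and Cxcr6 lies below it at 0.66 and -0.56.

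The last comparison sets aged mice given PF-044 beside the young untreated ones. Cxcl2 (-1.67, SE 0.08, limma adjusted p 6.7e-08), Ccl3 (-1.64, SE 0.13, 1.7e-06), Cxcl1 (-1.24, SE 0.09, 1.4e-06), Ccl2 (-0.70, SE 0.16, 0.0045) and Ccl9 (-0.58, SE 0.15, 0.012) were still lower in the aged mice. Cxcl13 (1.41, SE 0.15, limma adjusted p 2.4e-05), Ccl5 (1.27, SE 0.06, 6.7e-08), Ccr6 (1.11, SE 0.34, 0.024) and Cxcr6 (1.04, SE 0.17, 5.2e-04) were higher. Cxcr3 gave 0.08 (SE 0.15) and did not pass. With 4 higher and 5 lower, 28.1% of the 32 members were called, beside 34.5% of all genes tested (15% higher and 19.5% lower). Of the 11 members above the floor in all samples 72.7% were called, beside 49.9% of such genes. Over the 32 members, 6 were called higher and 5 lower with quantile normalization, 5 and 5 with each sample centred on its median and 6 and 4 on the reference genes. The Ccl9 call ended on the reference genes (-0.40, limma adjusted p 0.055) and in a fit of both groups alone (limma adjusted p 0.057). The Ccr6 call ended without aged PF-044 replicate 1 or 3 or young untreated replicate 1 or 2 (0.96 to 1.11, limma adjusted p 0.063 to 0.090) and with no filter on genes at the floor (limma adjusted p 0.051), and with a common floor of 100 Ccr6 gave 0.21 and Cxcr6 0.03.

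Other genes of chemokine signalling were taken from a list of 53, of which 24 are in the table and 23 were tested. With age 3 rose, 12 fell and 8 did not pass (median -0.38, beside -0.07 over all genes tested), so 65.2% were called beside 54% of all genes. Those that fell included Pf4, the platelet CXC chemokine whose symbol the rule does not match (-2.95, SE 0.10), the chemerin receptor gene Cmklr1 (-2.23, SE 0.07), the beta2 integrin gene Itgb2 (-1.44, SE 0.07) and the atypical chemerin receptor gene Ccrl2 (-0.80, SE 0.23). The gene of the receptor-coupled kinase PI3K gamma, Pik3cg, rose by 0.81 (SE 0.15). In aged mice given PF-044, 8 rose and 6 fell, 60.9% beside 40.9% of all genes (median 0.02 in both). Pf4 rose by 1.74 (SE 0.10), Dpp4, whose product clips chemokines, by 1.23 (SE 0.38) and Cmklr1 by 1.01 (SE 0.07), while the inhibitory G protein gene Gnai3 fell by 0.55 (SE 0.08). In young mice 4 rose and 3 fell with PF-044, 30.4% beside 14.1% of all genes (median 0.10 against 0.02). Among them were Gnai3 (-0.43, SE 0.08) and the matrix protease gene Mmp9 (0.99, SE 0.25). Of all genes above the floor in all samples, 71.8% were called for age. For PF-044 these shares were 56.2% in aged and 21.7% in young mice. The 23 genes of the list were not split by the floor.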

How the data were processed

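RNA of mouse peritoneal macrophages in 12 samples was measured on the NanoString nCounter, per the labels, with 1 value per gene and sample. The authors deposited normalized log2 values, which entered the fit unaltered. Limma is named in the submitters' processing notes without a version or role. The handling of background, scaling and the floor was not given in the sources used here. No value lies below 20 on the linear scale. Depth per sample is unknown, so no counting interval is given, and 3 samples a group limit the precision.

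Of 1448 genes, 258 at the floor in all samples were left out and 1190 entered 1 linear model per gene (limma 3.58.1, R 4.3.3, moderated by eBayes with its trend option), with a coefficient per group and 8 residual and 3.27 prior degrees of freedom. Tests were two-sided, and the Benjamini-Hochberg adjustment ran over the 1190 genes, with a call at 0.05. The fit assumes equal spread in all groups. Alternatives covered filters, floors, scalings, weights, the replicate block and leaving out each sample.

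Members and lists were chosen with earlier results of these data known. Any member may be named, but 1 member that enters the counts is not reported here. Values in all samples are given for members called with age or with PF-044 and for a fixed set of further members. Promoters and gene order come from RefSeq, GRCm38.p6. The narrower NF-kappaB motif and the shared run were chosen after the sequences were seen.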

Additional observations from a re-analysis of the deposited data

Results flagged for a closer look

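For 6 members the effect of PF-044 differed between aged and young mice by the test of the difference itself, given on the log2 scale as the effect in aged minus that in young mice. The differences were 1.22 for Ccl5, 2.03 for Ccr9, 1.12 for Cxcl13, 0.38 for Cxcl2 and -1.22 for Cxcr6. For Cxcr3 the fit gave 1.05, which is not a measured size because all 3 aged untreated mice were at the floor. The size for Ccr9 depends on the floor as well, since aged untreated replicates 2 and 3 were there.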

How the results depend on the processing

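Of 36 calls of members over the 5 comparisons, 22 were kept under every alternative in which the member was tested, and no call turned sign. Ccl21a, which had not passed for PF-044 in aged mice (-0.19), ranged from -0.74 to 0.92 on leaving out 1 sample, and it turned sign and passed at 0.92 without aged untreated replicate 1. Members called for age numbered 10 as reported (3 higher, 7 lower), 22 (15 and 7) with each sample centred on its median and 20 (15 and 5) on the reference genes, with 14 (6 and 8) under quantile normalization. These centrings shift all genes by 0.21 and 0.41 for age and by -0.12 and -0.23 for PF-044 in aged mice. For aged PF-044 against young untreated mice the shifts are 0.09 and 0.18. Values at the floor are moved too, so added calls of members with floor values can come from the shift alone. For PF-044 in aged mice 9 were called (8 higher, 1 lower), 12 (8 and 4) under quantile normalization, 8 (6 and 2) on the reference genes and 5 of 11 among genes above the floor in all samples. For PF-044 in young mice the count was 2, against 5 in a fit of the young groups alone, 9 with arrayWeights and 1 with a common floor of 100 and under both centrings (0 higher and 1 lower in each). The difference between PF-044 effects gave 6, and 10 with arrayWeights. Leaving out 1 sample gave 9 to 13 for age, 6 to 12 and 0 to 6 for PF-044 in aged and young mice, 5 to 9 for the difference and 8 to 10 for aged PF-044 against young untreated mice. The highest of these counts, 13, 12, 6, 9 and 10, all arose without aged untreated replicate 1, which leaves 24 members tested. The 0 for young mice arose without young PF-044 replicate 3 or young untreated replicate 2 or 3.

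No label says that a replicate number marks a litter or batch. Deviations of same-numbered samples correlated at -0.15 to 0.33, over 0.1 in 5 of 18 pairs. Those of different-numbered samples correlated at -0.35 to 0.24, over 0.1 in 6 of 36 pairs. A sample correlated best with its own number, among the 3 samples of another group, in 16 of 36 cases. With the replicate block the counts were 10, 9, 2, 6 and 9, as without it. Signal near the floor limits the low receptors, since aged untreated replicate 2 shows no value between the floor and 6.25.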

Other observations

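Among the 11 members above the floor in all samples, 8 (72.7%) were highest in aged PF-044 replicate 2 and lowest in replicate 3 of that group, beside 263 of 706 such genes (37.3%). The median SD of these 11 members was 0.27 log2 units in aged PF-044 mice, 0.15 in aged untreated, 0.10 in young PF-044 and 0.07 in young untreated mice. Ccl2, Ccl3, Ccl6, Ccl9 and Cxcl13 spanned 0.54 to 0.67 log2 units there.

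Aged untreated replicate 1 held Ccl21a at 7.65 and 8 members that no other sample shows above the floor, and 30 of the 43 members were above the floor in it, against 11 and 16 in replicates 2 and 3 and 21 to 23 in the other samples.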
